A study of Mus musculus with 10 samples.

Results

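The dual-specificity MAP kinase phosphatases examined here are 9 genes, Dusp1, Dusp2, Dusp3, Dusp4, Dusp5, Dusp6, Dusp7, Dusp10 and Dusp16, chosen by gene symbol. All 9 were found among the 13091 genes listed. RNA was sequenced from neutrophils grown from clones of mouse bone marrow progenitors (strain 129-SVEV). The progenitors were immortalized with an estrogen-dependent HoxB8. Per the paper, they matured once estrogen was withdrawn and both IL-3 and granulocyte colony-stimulating factor were supplied. The labels list 2 biological replicates of Vim+/+ cells (wild type) and 3 of Vim-/- cells (marked as a vimentin knockdown in the labels and as a knockout in the study's methods) without stimulation, and as many following LPS, which the methods give as 25 ng/mL for 1 hour. That makes 10 libraries in 4 groups. Per the methods each line was expanded from a single sorted cell.

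The value analysed was the mean normalized count, which is the count of a gene divided by a size factor for each library and averaged over the libraries of the authors' fit. It pools both genotypes and both treatments, so it gives how much of each phosphatase transcript these neutrophils held over the whole experiment. It does not give the response to LPS or the effect of vimentin, and no comparison between the groups was made here. The order of the genes may differ within a group. Values per library were not analysed here, so no SD, n or confidence interval can be attached to a level, and the depth of each library is unknown. In RNA from a bulk culture, fewer cells of a type and less RNA per cell cannot be told apart.

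MAP kinases are switched on by phosphorylation of a threonine and a tyrosine in their activation loop, and the dual-specificity phosphatases remove both phosphates. In innate immune cells LPS activates the ERK, JNK and p38 branches of the pathway through TLR4, and several of these phosphatases are known as feedback inhibitors that are themselves transcribed when the kinases are active. The family is usually divided by location and substrate. Dusp1, Dusp2, Dusp4 and Dusp5 encode nuclear enzymes whose genes are readily induced, Dusp6 and Dusp7 encode cytoplasmic enzymes for ERK, Dusp10 and Dusp16 encode enzymes for JNK and p38, and Dusp3 encodes a small atypical member that lacks the kinase-binding domain of the others.

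The cells carried the transcripts of neutrophils. All 10 neutrophil markers were listed, from 11373 normalized counts for Ly6g to 1290830.3 for S100a9. Of 6 macrophage markers, Adgre1 had 10073 and Csf1r 3269 normalized counts, and the other 4 were not analysed here. The progenitor markers ranged from 1075 for Kit to 121760.2 for Mpo, a primary granule enzyme made early in the neutrophil lineage. Of 4 lymphocyte markers, Cd79a had 83.8 and the other 3 were not analysed here. Vim had 39926 normalized counts, but as a mean over both genotypes this does not check the genotype labels. The part of these other cell types' markers in the phosphatase levels was not tested.

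By normalized count, which is not corrected for length, Dusp5, Dusp1 and Dusp16 collected the most reads of the members and Dusp4 the fewest. Dusp5 had a mean of 3939 normalized counts and Dusp1 had 3562, placing them at ranks 2663 and 2894 of the 13091 genes. Dusp16 followed at 2719. Dusp6 and Dusp3 stood at 1518 and 1476. Dusp7 at 884 and Dusp2 at 825 lay just under the median gene, which had 907. Dusp10 had 325, and Dusp4 had 38.8, at rank 11349. Longer transcripts collect more reads, so this order mixes transcript length with transcript number, and the levels below were divided by transcript length in kilobases, using the longest transcript of each gene in GENCODE M21.

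Per kilobase, the nuclear members held both ends of the 9 members examined. Dusp5, the nuclear phosphatase for ERK, had the highest level at 1593 normalized counts per kilobase, at or above 82.3% of genes with a transcript length, and at or above 70.8% when the mean transcript length was used. Its gene lies on chromosome 19 of GRCm38 (the build that mm10 names) from 53529145 to 53541809. Dusp1, which acts on p38 and JNK and is a well known brake on cytokine production by LPS-treated myeloid cells, had 1539.9 per kilobase, from a gene on chromosome 17 at 26505591 to 26508472. Dusp5 exceeded Dusp1 1.03-fold, and without an error on either value these neighbours cannot be said to differ. Dusp2, a nuclear enzyme first described in activated T cells, lies on chromosome 2 from 127336159 to 127338377 and had 510.0 per kilobase. Dusp4, on chromosome 8 from 34807610 to 34819894, had 14.2 per kilobase and stood above only 9.81% of genes. The nuclear group thus spanned a 113-fold range, which was also the range of the 9 members examined.

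The cytoplasmic phosphatases for ERK lay near the middle of all genes. Dusp6, whose transcription follows ERK activity in many cell types, had 543 normalized counts per kilobase (chromosome 10, 99263231 to 99267489). Dusp7 had 275 (chromosome 9, 106368560 to 106375724). The median gene had 309.6 per kilobase, so Dusp6 stood above it and Dusp7 below. With the mean transcript length Dusp7 stood above the median instead, over or level with 53.2% of genes.

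Of the phosphatases for JNK and p38, Dusp16 was the more abundant. Dusp16 had 533 normalized counts per kilobase (chromosome 6, 134715468 to 134807063), close to Dusp6 and Dusp2. Dusp10 had 116 (chromosome 1, 184034381 to 184075636), the lowest level of the members after Dusp4. Dusp3, the atypical member, had 332 per kilobase (chromosome 11, 101971141 to 101987013), next to the median gene. Dusp3 fell below the median, to 49.3% and 49.1% of genes, with the mean transcript length and the principal transcript. In all, 6 of the 9 members were above the median gene per kilobase.

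**Figure D1:**
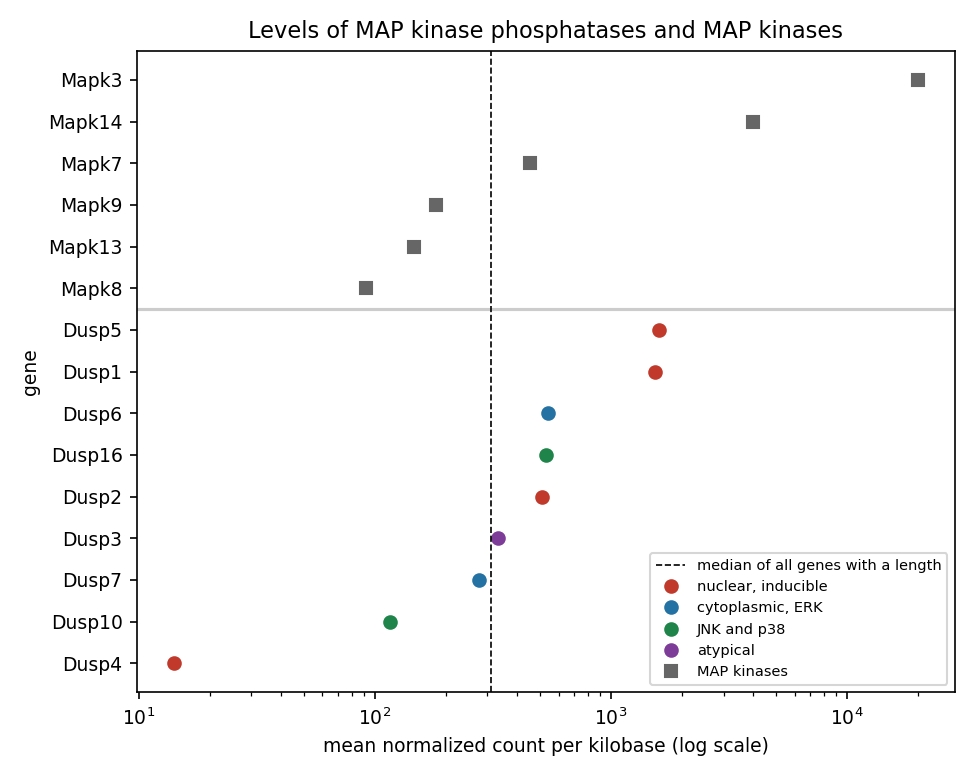
Mean normalized count per kilobase of the longest transcript (horizontal axis, log scale) for the 9 phosphatases, coloured by class, and for 6 MAP kinases as grey squares, with 1 point per gene and no error because the values are means over the libraries. Dusp5 and Dusp1 lie together at the top of the phosphatases, Dusp4 lies far below at 14.2, and the dashed line marks the median gene at 309.6.

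The order of the members depended in part on which length was used. Dusp5 and Dusp1 remained the highest 2 members under all 4 lengths tried, with Dusp1 above Dusp5 for the mean transcript length (2385 against 1593 per kilobase) and for the principal transcript (1789.8 against 1593). Dusp4 stayed lowest and Dusp10 next to lowest under all 4. Dusp3 moved most, from the 6th place to the 3rd when the coding length replaced the transcript length, because its coding sequence of 630 bases is short beside its longest transcript of 4445 bases. Dusp6, Dusp16 and Dusp2 had levels within 510.0 to 543 per kilobase of the longest transcript. Dusp6 and Dusp16 changed places with the mean transcript length and the coding length, while Dusp2 stayed below both.

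**Figure D2:**
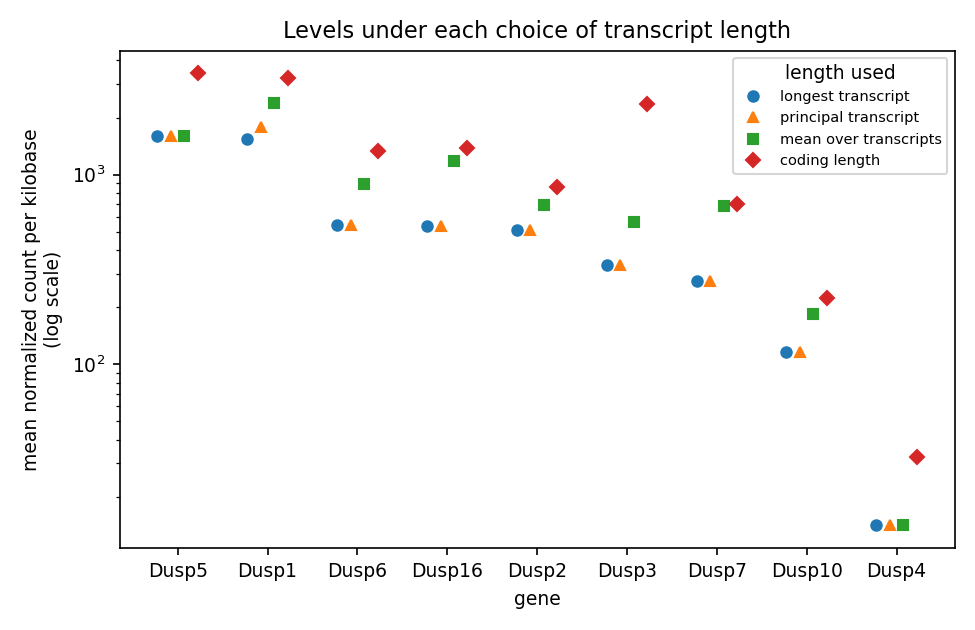
Mean normalized count per kilobase (vertical axis, log scale) of each phosphatase when divided by the longest transcript, the principal transcript, the mean over transcripts or the coding length, with 1 marker per choice. Dusp4 and Dusp10 are lowest under every choice, and Dusp3 shows the widest gap between choices, from 332 to 2344.

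The level of the kinases that these enzymes act on differed widely between genes, again with no error on the values. Of 9 MAP kinase genes searched for, 6 were listed. Mapk3 (ERK) had 19890.3 normalized counts per kilobase and Mapk14 (the alpha form of p38) 3987. The JNK genes Mapk9 and Mapk8 had 182 and 91.8 per kilobase. Mapk7 had 456 and Mapk13 146. Mapk10, Mapk11 and Mapk12 were searched for but were not among the genes listed, so no level is given. All 7 MAP kinase kinases, which phosphorylate the kinases, were listed, from 261 per kilobase for Map2k6 to 2871 for Map2k3.

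The other dual-specificity phosphatases mostly lay below the median gene. Of 17 symbols searched for, 8 were not among the genes listed, Dusp8 and Dusp9 being 2 of them. Of the 9 listed, 1 exceeded the median gene per kilobase. That gene was Dusp11, which acts on RNA and had 513 per kilobase. The median of the 9 was 100.4 per kilobase, against 510.0 for the members. Dusp22 had the lowest level of these genes, 7.32 per kilobase, and Styx, a pseudophosphatase, had 12.3.

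Transcripts of inflammatory feedback genes often carry AU-rich elements in the 3′ UTR, where the decay factor tristetraprolin binds, and the 3′ UTR of each member was therefore searched on its sense strand for the pentamer ATTTA and for the nonamer TTATTTATT, which itself contains the pentamer. Dusp1 was the only member with the nonamer, and it held 2 copies within a 3′ UTR of 690 bases. They are shown because the other 8 members had no such site. In GENCODE M21 on GRCm38 the first lies at chr17:26506161-26506185 and the second at chr17:26505872-26505896, both on the minus strand and both in the 3′ UTR. The transcript is written 5′ to 3′, with the nonamer in capitals and 8 bases on each side.
Dusp1 site 1: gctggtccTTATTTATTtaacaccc
Dusp1 site 2: ttttacctTTATTTATTtttgtgta

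The nonamer was thus in 1 of 9 members (11.1%), a share near that of all 3′ UTRs, and says nothing particular of the family. It was present in 7.96% of the 11142 3′ UTRs searched, and in 5.19% of the 1214 whose length was within 20% of that of Dusp1. By the pentamer, 4 of the 9 members held more copies than the median of 3′ UTRs of like length. Dusp1 and Dusp2 held the most for their length. Each held 4 copies, where the median of like-length 3′ UTRs was 1, and 7.74% and 5.22% of those held at least as many. The copies in Dusp1 include those within its 2 nonamers. Dusp10 held 3 and Dusp4 held 2, where the median was also 1, but 30.6% and 49.5% of like-length 3′ UTRs held at least as many. Dusp3 held 4 in a 3′ UTR of 3591 bases, where the median was 6, and Dusp16 held 3 against 4. Dusp5 and Dusp6 held 1 each, against 1 and 2, and Dusp7 held 0 against 3. A match to these letters is a description of the sequence, and neither binding nor decay was measured.

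**Figure D3:**
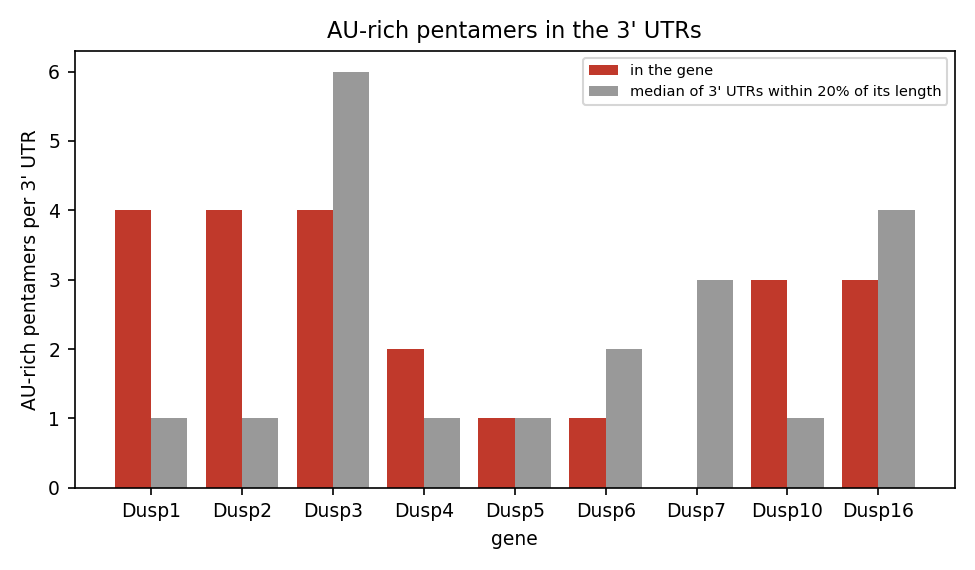
Number of ATTTA pentamers in the 3′ UTR of each phosphatase (red bars) beside the median number in 3′ UTRs within 20% of its length (grey bars). Dusp1 and Dusp2 reach 4 against a median of 1, whereas Dusp7 has 0 against 3.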

How the data were processed

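Per the labels and the study's methods, the authors used Cutadapt 4.4 for trimming, STAR 2.7.10b for alignment to mm10 and for counting, and DESeq2 1.26.0 to normalize the counts. The methods also state that covariates of unwanted variation, found with RUVseq, entered the authors' model. The gene annotation and the strand setting of the counting are not given in the sources used here, so reads of overlapping genes are uncertain. The signal used is the deposited mean of normalized counts over libraries, which was the same within 1e-06 in all 4 tables for all 13091 genes. The tables do not name the libraries in that mean. The remaining columns hold the authors' own fold changes, standard errors, Wald statistics and p-values for LPS and for genotype, and were not used, so the count model planned for counts per sample was not run.

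Genes were matched by symbol to GENCODE M21 for length (12046 genes, 92.0%) and to RefSeq GRCm38.p6 for position. The 3′ UTR was that of the longest complete coding transcript. The rule for named genes took all 9 members and fixed lists of phosphatases, kinases and cell type markers, of which 1 item is not reported here. Members and lists were chosen with earlier results of these data known. Python 3.11.15 and pandas 2.3.3 were used. The ranking, percentile, motif search and coordinate steps were tested on small made-up input, and the other steps were not.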

Additional observations from a re-analysis of the deposited data

How the results depend on the processing

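With transcript length taken as the mean over transcripts, 6 of the 9 members were above the median gene per kilobase, as many as with the longest transcript, but Dusp7 rose above it and Dusp3 fell below. Dusp3 also fell below with the principal transcript. With the coding length or the principal transcript, which were chosen after seeing the data, 6 and 5 were. By normalized count, 5 members were above the median of all genes and 3 above the median of the 10321 genes with a mean of at least 100, a set with a higher median. The levels per kilobase of Dusp1, Dusp3, Dusp6, Dusp7, Dusp10 and Dusp16 rose over 1.5 times with the mean transcript length, and those of all 9 members with the coding length. A shorter length raises the level of a gene, but Dusp4 and Dusp5, with 1 transcript each, did not change with the mean transcript length. The median gene went from 309.6 per kilobase to 586 with the mean transcript length and 822 with the coding length. Relative to all genes, the members other than Dusp7 and Dusp16 stood lower with the mean transcript length, with Dusp1 going from 81.9% to 78.2% of genes at or below it, Dusp6 from 62.2% to 59.0% and Dusp10 from 31.8% to 30.6%. Coding length was read from the annotation and not from proteins as planned. No paired analysis was possible because the values used are means over libraries, which carry no replicate. For the same reason no test between groups, no other normalization and no leaving out of a library could be run. Depth limits cannot be stated, as no counts per library were used.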
